A study of Homo sapiens with 16 samples.

Results

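The mRNA of 41 human genes of 3 DNA repair routes, nucleotide excision, mismatch and base excision repair, was measured in 2 breast cancer cell lines cultured in low or high glucose. The genes came from a list of 42 symbols, and the deposited table of 18332 genes held a row for 17 nucleotide excision, 6 mismatch and 18 base excision repair genes of that list. GTF2H5, a small subunit of the transcription factor TFIIH, was on the list and was not analysed here. RNA sequencing was done on MDA-MB-231 and MDA-MB-468, established human lines from breast cancers that lack the estrogen receptor. For 48 hours each line received medium with 5 mM glucose, here called low glucose, or 25 mM glucose, called high glucose and used as a model of hyperglycemia, with 4 samples in each of the 4 groups and 16 in all. According to the study's methods, the cells had first been kept in low glucose and the treatment media held no serum, so both features were shared by all groups. Mannitol, which the study used in some experiments as a control for osmolarity, is not named in the labels of these samples. Each line stands for 1 tumor, and the labels say only that the 4 samples of a group are replicates, so the p-values measure the spread between these samples, which may be technical.

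Base excision repair removes small damaged bases: a DNA glycosylase cuts out the base, an AP endonuclease nicks the strand, and a polymerase and a ligase fill and seal the gap, with the PARP enzymes and the scaffold XRCC1 gathering at the nick. Nucleotide excision repair removes bulky lesions: XPC or the CSA and CSB proteins find the damage, TFIIH opens the helix, and a pair of nucleases cuts out a stretch of the strand. Mismatch repair corrects copying errors: a MutS complex recognizes the mispair, a MutL complex nicks the new strand, and the exonuclease EXO1 removes it.

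The unit below, the normalized count, is the deposited value, which takes the form of the reads of a gene divided by a size factor for its library, a form read from the values themselves. The 16 libraries held between 14094597 and 24425916 recovered reads. Differences were tested with limma on log2(normalized count + 1), as high minus low glucose within each line, and a gene is said to have risen or fallen where its Benjamini-Hochberg adjusted p over all genes tested was below 0.05. The lines matched their labels in the mesenchymal and epithelial marker genes: VIM, a mesenchymal filament gene, averaged 96228 ± 2742 normalized counts (SD, n = 4) for MDA-MB-231 and 21.5 ± 5.48 for MDA-MB-468 in low glucose, and CDH1, the epithelial cadherin, averaged 5.51 ± 1.12 and 2007 ± 54.2. EPCAM and KRT5, which mark epithelial and basal cells, were also higher in MDA-MB-468, at 5428 and 15150.0 against 215 and 1.13. ESR1, the estrogen receptor gene, averaged 1.30 for MDA-MB-231 and 57.9 for MDA-MB-468, so its mRNA was near 0 only in MDA-MB-231. In RNA from a whole culture, fewer cells of a kind and less RNA per cell cannot be told apart.

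The glucose responses of the repair genes differed between the lines. In MDA-MB-231, 9 of the 41 members passed the test, 1 higher (MPG) and 8 lower (ERCC2, MSH6, EXO1, UNG, NEIL3, APEX2, PARP1 and PARP2) in high glucose. Over all 14884 genes tested in this line, 15.1% were called, 5.71% as higher and 9.37% as lower. In MDA-MB-468, 21 members passed, 9 higher and 12 lower, where 47.6% of 15757 genes were called, 24.9% as higher and 22.7% as lower. The share of members called in MDA-MB-468, 51.2%, was therefore near that of all genes. The median log2 difference of the members was 0.0045 for MDA-MB-231 and -0.0050 for MDA-MB-468, beside 0.0017 and 0.00011 over all genes.

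Only MPG rose in both lines, where 1.86% of the 13573 genes tested in both did so, and PARP1 and UNG fell in MDA-MB-231 and rose in MDA-MB-468, a pattern of 3% of genes (4.46% were called in opposite directions, either way). None of the 41 fell in both lines (3.02% of genes), and 14 passed the test in neither: DDB1, DDB2, ERCC8, GTF2H2, GTF2H3, MBD4, MSH3, NEIL1, NEIL2, NTHL1, POLB, RAD23B, SMUG1 and XPA. The 4 high-glucose and 4 low-glucose samples did not overlap for 2 members with higher and 7 with lower values in MDA-MB-231, beside 7.63% and 11.1% of genes, and for 10 and 11 in MDA-MB-468, beside 22.2% and 20.4%. At an unadjusted p below 0.05, 13 members passed for MDA-MB-231 and 21 for MDA-MB-468, beside 27.1% and 53.5% of genes. The difference of the response itself, MDA-MB-468 minus MDA-MB-231 in a limma model of all 16 samples, was called for 23 members, 13 of them positive and 10 negative, beside 30.9% of 17115 genes. By route, the difference was called for 9 of 17 nucleotide excision, 5 of 6 mismatch and 9 of 18 base excision repair genes.

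**Figure D1:**
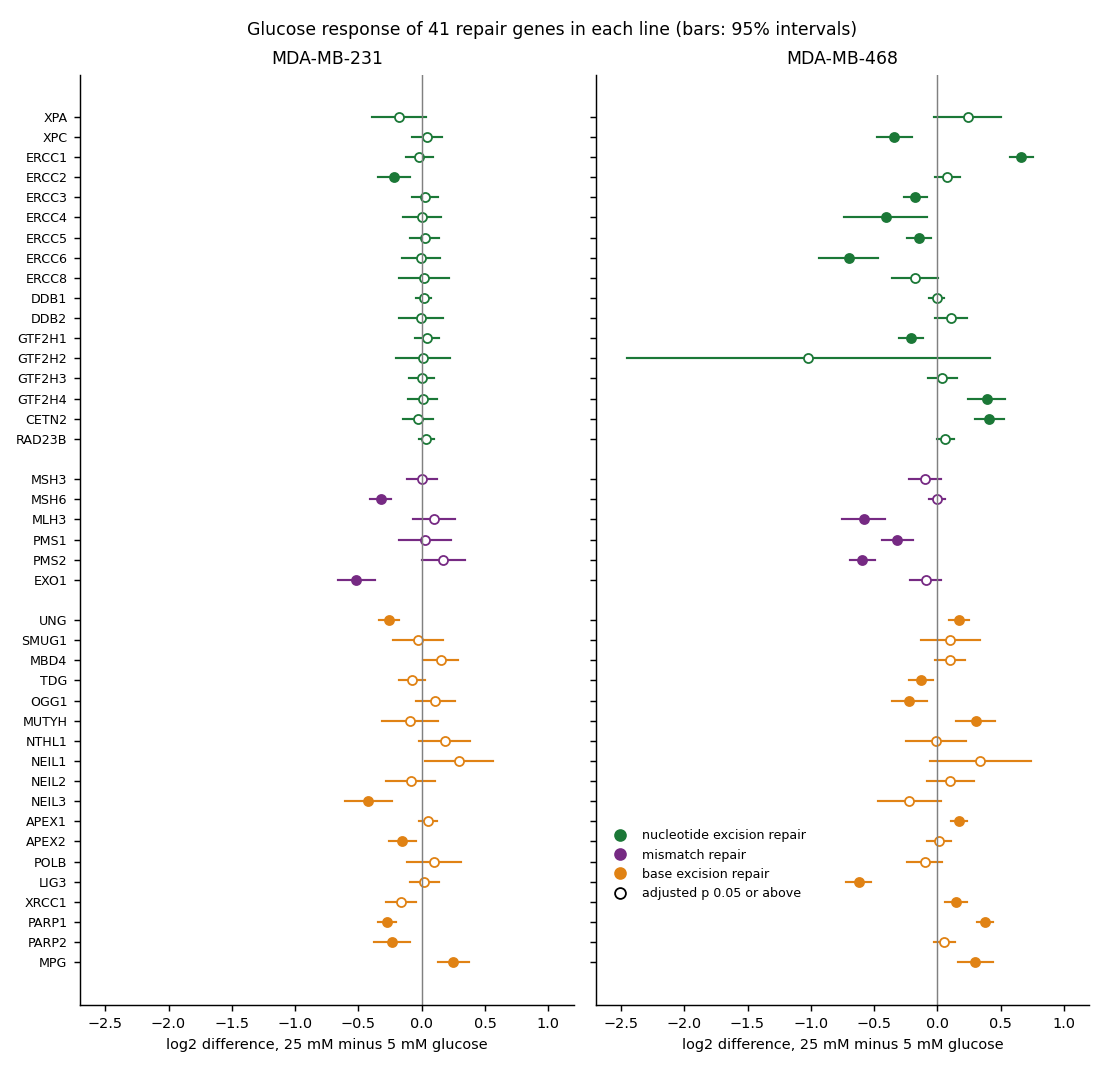
Log2 difference in normalized count, 25 mM minus 5 mM glucose, of each of the 41 members in MDA-MB-231 (left) and MDA-MB-468 (right), with bars for the 95% interval of the limma fit and filled points for an adjusted p below 0.05. The MutL genes MLH3, PMS1 and PMS2 lie between -0.60 and -0.32 in MDA-MB-468, and MSH6 and EXO1 at -0.32 and -0.52 in MDA-MB-231.

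The called mismatch repair genes differed between the lines. The mispair-binding subunit MSH6 and the exonuclease EXO1 fell in MDA-MB-231, and all 3 MutL genes on the list fell in MDA-MB-468. None of these 5 genes was called in the other line. Of the 6 mismatch repair genes, 33.3% were called in MDA-MB-231, beside 15.1% of all genes. In MDA-MB-468 the share was 50%, near the 47.6% of all genes. MSH6 (chr2:47922669-48037202, GRCh37) forms the MutS complex that binds base mispairs and short loops. MSH6 in MDA-MB-231 measured 1784, 1815, 1698 and 1857 normalized counts in low glucose and 1371, 1498, 1449.9 and 1394 in high glucose. MSH6 in MDA-MB-468 measured 3679, 3923, 3798 and 3872 in low and 3854, 3742, 3784 and 3835 in high glucose. All 4 high-glucose samples of MDA-MB-231 lay below all 4 low-glucose samples, while in MDA-MB-468 the groups overlapped. The log2 difference was -0.32 (SE 0.040, adjusted p = 2.42e-05) in MDA-MB-231, a level 0.799 times that in low glucose, and -0.0050 (SE 0.030, adjusted p = 0.907) in MDA-MB-468 with a 95% interval of -0.068 to 0.058. The response differed between the lines by 0.32 (SE 0.046, adjusted p = 5.03e-05). FBXO11, on the opposite strand, overlaps 22.7% of the MSH6 exon bases and had a log2 difference of -0.077 in MDA-MB-231 (adjusted p = 0.205).

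EXO1 (chr1:242011269-242058450) digests the nicked strand. EXO1 counts in the 4 low-glucose samples of MDA-MB-231 were 342, 329, 337 and 337, against 211, 248, 229 and 253 in high glucose. EXO1 counts in MDA-MB-468 were 454, 436, 456 and 463 in low glucose, against 459.8, 399, 404 and 437 in high glucose. The MDA-MB-231 groups did not overlap, and its log2 difference of -0.52 (SE 0.069, adjusted p = 5.62e-05) was the largest fall of any member in that line. In MDA-MB-468 the difference was -0.091 (SE 0.058, adjusted p = 0.211), and the difference between the lines was 0.42 (SE 0.083, adjusted p = 0.000891). MSH3, which pairs with the same MutS partner to bind larger loops, was called in neither line and averaged 467 ± 10.7 and 467.5 ± 29.1 (SD, n = 4) in low and high glucose in MDA-MB-231. Its intervals were -0.12 to 0.12 for MDA-MB-231 and -0.22 to 0.024 for MDA-MB-468.

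The MutL genes encode partners of a common subunit that is not analysed here. PMS2 (chr7:6010556-6048761) supplies the nuclease of the main MutL complex. Normalized counts of PMS2 in MDA-MB-231 were 216, 205, 202 and 221 in low and 271, 231.4, 235 and 215 in high glucose. PMS2 in MDA-MB-468 had 890.4, 899, 882 and 926 in low glucose, compared with 605, 614, 611 and 551 in high glucose. Every high-glucose sample of MDA-MB-468 was below every low-glucose sample, with a log2 difference of -0.60 (SE 0.047, adjusted p = 2.88e-08), a level 0.662 times that in low glucose. In MDA-MB-231 the high-glucose values overlapped the low-glucose ones, with 0.17 (SE 0.080, adjusted p = 0.182). The difference between the lines, -0.77 (SE 0.087, adjusted p = 4.15e-06), was the most negative among the members called for it. PMS2 has near-identical copies that could share its reads, so its counts are uncertain: the largest copy in the table, PMS2CL, averaged 412 normalized counts in low and 283 in high glucose in MDA-MB-468, a log2 difference of -0.54.

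MLH3 (chr14:75480472-75518235) encodes the subunit best known from meiotic crossing over, with a minor part in mismatch repair. MLH3 in MDA-MB-231 measured 197, 217, 199 and 225 normalized counts in low glucose and 202, 224, 227 and 243 in high glucose. MLH3 in MDA-MB-468 measured 248, 269.9, 249 and 228 in low and 174, 167, 168 and 153 in high glucose. The MDA-MB-468 groups did not overlap (log2 difference -0.58, SE 0.078, adjusted p = 1.26e-05). The MDA-MB-231 groups overlapped (log2 difference 0.094, SE 0.079, adjusted p = 0.492), and the difference between the lines was -0.68 (SE 0.10, adjusted p = 8.29e-05). PMS1 (chr2:190648811-190742355) encodes a further MutL partner whose part in repair is less clear. PMS1 counts in the 4 low-glucose samples of MDA-MB-231 were 184, 207, 146 and 187, against 177, 187, 173 and 196 in high glucose. PMS1 counts in MDA-MB-468 were 583, 593, 551 and 546 in low glucose, against 493, 465, 422 and 444 in high glucose. In MDA-MB-468 the groups again did not overlap (log2 difference -0.32, SE 0.057, adjusted p = 0.000221), whereas in MDA-MB-231 the difference was 0.025 (SE 0.10, adjusted p = 0.91). The difference between the lines, -0.34 (SE 0.12, adjusted p = 0.0391), was lost without MDA-MB-231 low glucose replicate 3, MDA-MB-231 high glucose replicates 2 or 4, MDA-MB-468 low glucose replicates 1 or 2 or MDA-MB-468 high glucose replicates 3 or 4 (adjusted p from 0.0541 to 0.0799).

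**Figure D2:**
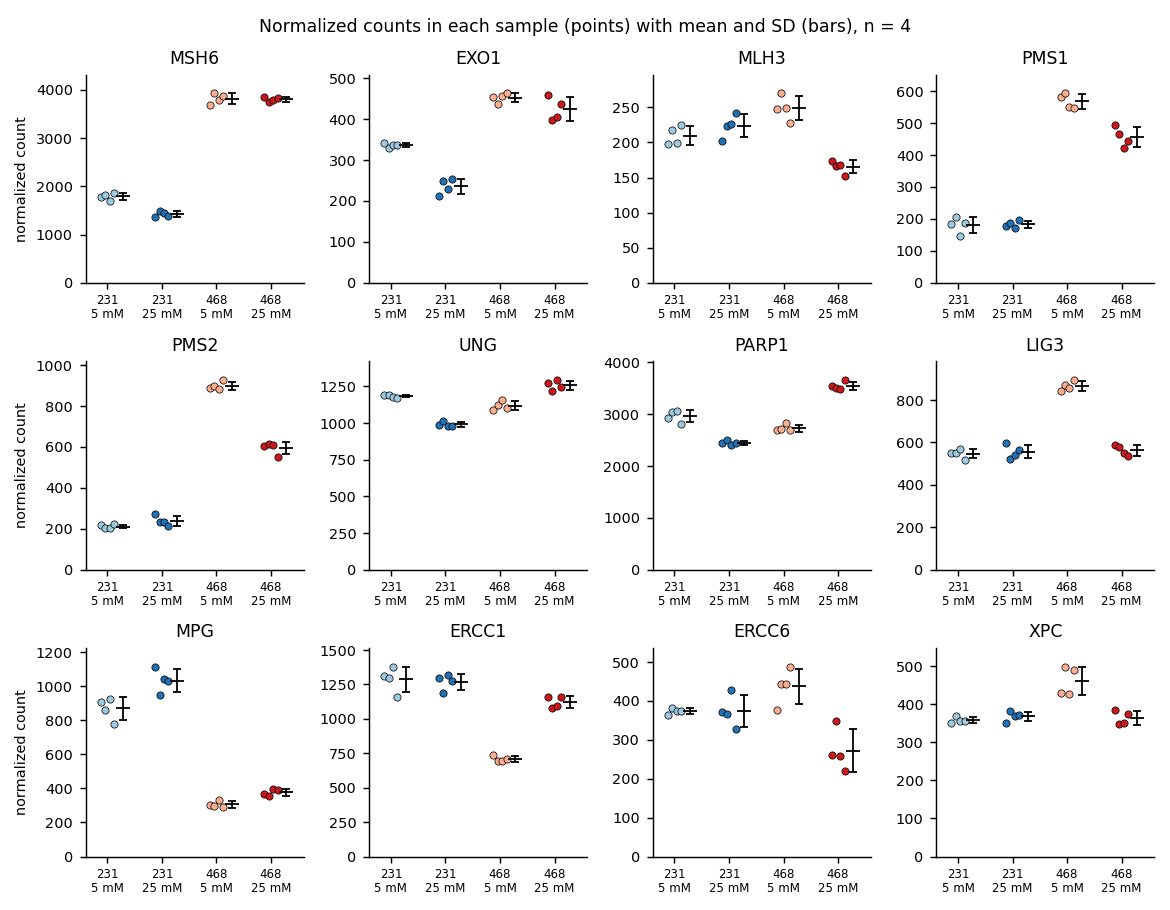
Normalized count of 12 members in each of the 16 samples (points; pale for 5 mM and dark for 25 mM glucose, blue for MDA-MB-231 and red for MDA-MB-468), with the group mean and SD of 4 samples beside them; each vertical axis starts at 0. PARP1 and UNG move in opposite directions in the lines, MPG is higher in high glucose in both, and LIG3 in MDA-MB-468 drops from a mean of 866 to 563.

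The sequence upstream of the members was examined for short motifs because MSH6, EXO1 and UNG are genes of dividing cells and because the glucose-responsive factors of the ChREBP and MondoA family bind E-boxes. Promoter sequences were those of RefSeq on GRCh38.p14, and 38 of the 41 measured members had at least 1 window of 250 bases before a start site. The E2F-type octamers TTTCGCGC, TTTGGCGC and TTCCCGCC, searched on both strands, were found upstream of 6 members (XPC, DDB2, GTF2H1, MSH3, MSH6 and PARP2), beside 4.44% of all 27305 genes with a window. Of the 8 members that fell in MDA-MB-231, 2 held one, MSH6 and PARP2, while EXO1 and UNG held none. In MDA-MB-468, 2 of the 6 fell, XPC and GTF2H1, and none rose. The E-box CACGTG was found upstream of 8 members (ERCC6, GTF2H1, UNG, TDG, NTHL1, APEX1, LIG3 and MPG), beside 7.73% of genes. In MDA-MB-468, 3 of these 8 rose and 4 fell, and in MDA-MB-231, 1 rose and 1 fell. Over all genes, 24.9% were called higher and 22.7% lower in MDA-MB-468, and 5.71% and 9.37% in MDA-MB-231. The called genes with this hexamer moved in both directions, as the called genes of each line did. The same shares stand beside the counts for the octamers and the pentamer. The pentamer CCAAT, also searched on both strands, was found upstream of 21 members, beside 37% of genes. It was held by 5 of the 8 that fell in MDA-MB-231 and by the 1 that rose there, and of the 21, 4 fell and 8 rose in MDA-MB-468. The following stretches of 120 bases are shown for the 4 members with an octamer or E-box match and a called response in MDA-MB-231, 5′ to 3′, with the match in capitals. The octamer (in PARP2 as listed, in MSH6 as its reverse complement) is marked in the first pair and the E-box in the second. A match describes letters only, not a bound site.
MSH6, chr2:47783833-47783952, plus strand: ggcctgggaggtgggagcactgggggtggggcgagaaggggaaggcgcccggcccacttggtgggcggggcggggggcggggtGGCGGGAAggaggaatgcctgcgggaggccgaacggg
PARP2, chr14:20343515-20343634, plus strand: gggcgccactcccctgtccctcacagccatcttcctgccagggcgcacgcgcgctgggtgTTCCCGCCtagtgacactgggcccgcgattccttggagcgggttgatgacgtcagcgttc
UNG, chr12:109098052-109098171, plus strand: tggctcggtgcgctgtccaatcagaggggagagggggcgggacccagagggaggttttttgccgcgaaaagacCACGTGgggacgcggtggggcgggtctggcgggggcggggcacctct
MPG, chr16:78064-78183, plus strand: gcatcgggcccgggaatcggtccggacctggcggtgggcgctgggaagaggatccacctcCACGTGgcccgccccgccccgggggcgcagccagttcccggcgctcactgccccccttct

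The 2 members called in opposite directions in the lines, PARP1 and UNG, are base excision repair genes, and 3% of all genes tested in both lines had their pattern. Of the 18 genes of this route, 6 were called in MDA-MB-231 (1 higher, 5 lower) and 9 in MDA-MB-468 (6 higher, 3 lower). These shares were 33.3%, beside 15.1% of all genes, and 50%, near the 47.6% of all genes. UNG (chr12:109535402-109564530), the main uracil-DNA glycosylase, removes uracil from DNA, including that built in during replication. Normalized counts of UNG in MDA-MB-231 were 1190.4, 1189.9, 1180.1 and 1172 in low and 985, 1014, 983 and 981 in high glucose. UNG in MDA-MB-468 had 1091, 1124, 1156 and 1101 in low glucose, compared with 1274, 1218, 1291 and 1245 in high glucose. In neither line did the glucose groups overlap: UNG fell in MDA-MB-231 (log2 difference -0.26, SE 0.037, adjusted p = 0.000119) and rose in MDA-MB-468 (log2 difference 0.17, SE 0.038, adjusted p = 0.00147). The difference of the responses was 0.42 (SE 0.039, adjusted p = 4.25e-07). Of the other uracil and thymine glycosylases, only TDG was called, in MDA-MB-468. SMUG1, a backup uracil glycosylase, had intervals of -0.23 to 0.17 for MDA-MB-231 and -0.13 to 0.33 for MDA-MB-468. MBD4, which acts on deaminated methylcytosine, had 0.15 (SE 0.067, adjusted p = 0.156) for MDA-MB-231 and 0.10 (SE 0.055, adjusted p = 0.147) for MDA-MB-468. TDG, the thymine-DNA glycosylase also used in DNA demethylation, averaged 752 ± 8.78 and 689 ± 33.9 in low and high glucose in MDA-MB-468 and fell (log2 difference -0.13, SE 0.046, adjusted p = 0.0293), a call that 8 of 19 alternatives did not keep, 6 of them without MDA-MB-468 low glucose replicates 1, 2 or 3 or MDA-MB-468 high glucose replicates 1, 2 or 4 (adjusted p from 0.0527 to 0.0771). In MDA-MB-231 its difference was -0.077 (SE 0.049, adjusted p = 0.339), and its responses were not shown to differ between the lines (-0.051, SE 0.060, adjusted p = 0.572).

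MPG (chr16:127006-135850), the alkyladenine glycosylase that removes methylated and other damaged purines, was the 1 member that rose in both lines. MPG in MDA-MB-231 measured 907, 862, 928 and 781 normalized counts in low glucose and 1112, 948, 1044 and 1032 in high glucose. MPG in MDA-MB-468 measured 302, 299, 333 and 290.1 in low and 365, 355, 397 and 391 in high glucose. High-glucose samples were above all low-glucose samples in both lines. The log2 differences were 0.25 (SE 0.057, adjusted p = 0.0064) for MDA-MB-231 and 0.30 (SE 0.065, adjusted p = 0.00108) for MDA-MB-468, and they were not shown to differ (0.050, 95% interval -0.14 to 0.24, adjusted p = 0.722). The opposite strand holds NPRL3, which overlaps 30.1% of the MPG exon bases and had a log2 difference of -0.12 in MDA-MB-468 (adjusted p = 0.0363). How the counting used strand is not given in the sources used here.

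The oxidized-base glycosylases gave a mixed picture. NEIL3 (chr4:178231028-178284090), a glycosylase of dividing cells that also acts on single-stranded DNA and crosslinks, fell in MDA-MB-231. NEIL3 counts in the 4 low-glucose samples of MDA-MB-231 were 192, 183, 221 and 195, against 138, 162, 148 and 142 in high glucose. NEIL3 counts in MDA-MB-468 were 96.5, 84.1, 86.6 and 98.8 in low glucose, against 83.6, 74.3, 85.8 and 69.96 in high glucose. The MDA-MB-231 groups did not overlap (log2 difference -0.42, SE 0.087, adjusted p = 0.00307), and in MDA-MB-468 the difference was -0.22 (SE 0.12, adjusted p = 0.135). These responses were not shown to differ, with a difference of 0.20 (SE 0.13, adjusted p = 0.278). OGG1 (chr3:9791628-9829903) removes oxidized guanine opposite cytosine. Normalized counts of OGG1 in MDA-MB-231 were 247, 299, 263 and 253 in low and 287, 306, 270.3 and 279 in high glucose. OGG1 in MDA-MB-468 had 442, 392, 454 and 398 in low glucose, compared with 357, 355, 341 and 391 in high glucose. It fell in MDA-MB-468 without overlap (log2 difference -0.22, SE 0.065, adjusted p = 0.0105), had 0.11 (SE 0.074, adjusted p = 0.387) in MDA-MB-231, and differed between the lines by -0.33 (SE 0.10, adjusted p = 0.0174). CAMK1, on the opposite strand, overlaps 24.9% of the OGG1 exon bases and had a log2 difference of 0.031 (adjusted p = 0.943) in MDA-MB-468.

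MUTYH (chr1:45794835-45806565) removes adenine paired with oxidized guanine, the step that backs up OGG1. MUTYH in MDA-MB-231 measured 148, 153, 197 and 171 normalized counts in low glucose and 151, 151, 142 and 181 in high glucose. MUTYH in MDA-MB-468 measured 302, 248, 253 and 264 in low and 308, 339.7, 347 and 319 in high glucose. It rose in MDA-MB-468 without overlap (log2 difference 0.30, SE 0.073, adjusted p = 0.0027) while OGG1 fell there, and had -0.092 (SE 0.10, adjusted p = 0.627) in MDA-MB-231. The difference between the lines (log2 difference 0.39, SE 0.14, adjusted p = 0.0349) was lost without MDA-MB-231 low glucose replicates 3 or 4, MDA-MB-231 high glucose replicates 1, 2 or 3, MDA-MB-468 low glucose replicates 2, 3 or 4 or MDA-MB-468 high glucose replicates 2 or 3 (adjusted p from 0.0547 to 0.072). TOE1, on the opposite strand, overlaps 8.45% of the MUTYH exon bases and had a log2 difference of -0.49 in MDA-MB-468 (adjusted p = 3.94e-06). NTHL1, which removes oxidized pyrimidines, had 0.18 (SE 0.10, adjusted p = 0.237) in MDA-MB-231 and, in the other line, -0.0089 (SE 0.11, adjusted p = 0.957). NEIL1, another oxidized-base glycosylase, was the scarcest of these genes, at 60.2 ± 2.09 and 74.4 ± 8.78 normalized counts in low and high glucose for MDA-MB-231 and 28.6 ± 2.99 and 36.6 ± 6.12 for MDA-MB-468. In both lines its high-glucose samples lay above its low-glucose samples, but its adjusted p was 0.142 and 0.149, and MAN2C1, which overlaps 26.4% of its exon bases on the opposite strand, rose in MDA-MB-468 (log2 difference 0.56, adjusted p = 5.19e-05). NEIL2, its relative, had intervals of -0.28 to 0.10 for MDA-MB-231 and -0.085 to 0.29 for MDA-MB-468.

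Of the AP endonucleases, which cut the strand where a base is missing, APEX1 (chr14:20923350-20925931) does nearly all of this work in human cells. APEX1 counts in the 4 low-glucose samples of MDA-MB-231 were 3088, 3036, 2935 and 2900.3, against 3038, 3090.3, 3015 and 3219.6 in high glucose. APEX1 counts in MDA-MB-468 were 7678, 7626, 7706 and 7289 in low glucose, against 8581, 8073, 8749 and 8713 in high glucose. APEX1 rose in MDA-MB-468 without overlap (log2 difference 0.17, SE 0.031, adjusted p = 0.000268) and had 0.048 (SE 0.034, adjusted p = 0.396) in MDA-MB-231. APEX2 (chrX:55026796-55035490) is a minor, replication-linked relative. Normalized counts of APEX2 in MDA-MB-231 were 668, 682, 668 and 632 in low and 639, 569, 581 and 595 in high glucose. APEX2 in MDA-MB-468 had 659, 651, 652 and 666 in low glucose, compared with 660.1, 682, 631 and 683 in high glucose. Its fall in MDA-MB-231 was at the threshold (log2 difference -0.15, SE 0.050, adjusted p = 0.0498), its groups overlapped, and 14 of 19 alternatives did not call it, 6 of them without MDA-MB-231 low glucose replicates 1, 2 or 3 or MDA-MB-231 high glucose replicates 2, 3 or 4 (adjusted p from 0.0947 to 0.149). In MDA-MB-468 the difference was 0.014 (SE 0.045, adjusted p = 0.825). The differences between the lines were 0.12 (SE 0.044, adjusted p = 0.0418) for APEX1 and 0.17 (SE 0.057, adjusted p = 0.0358) for APEX2, and 12 and 17 of 27 alternatives did not call them. The first was lost without MDA-MB-231 low glucose replicates 1 or 2, MDA-MB-231 high glucose replicates 1, 2 or 3, MDA-MB-468 low glucose replicates 2 or 4 or MDA-MB-468 high glucose replicates 1, 3 or 4 (adjusted p from 0.0536 to 0.0888). The second was lost without MDA-MB-231 low glucose replicates 1, 2 or 3, MDA-MB-231 high glucose replicates 2, 3 or 4, MDA-MB-468 low glucose replicates 1, 2 or 3 or MDA-MB-468 high glucose replicates 1, 2 or 4 (adjusted p from 0.0501 to 0.0754).

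PARP1 (chr1:226547911-226595855) senses strand nicks and marks them with poly(ADP-ribose). PARP1 in MDA-MB-231 measured 2935, 3034, 3059.7 and 2808 normalized counts in low glucose and 2446, 2496, 2408 and 2442 in high glucose. PARP1 in MDA-MB-468 measured 2689.5, 2707, 2830.5 and 2696 in low and 3535, 3508, 3489 and 3653 in high glucose. The groups did not overlap in either line. PARP1 fell in MDA-MB-231 (log2 difference -0.27, SE 0.034, adjusted p = 2.67e-05) to 0.828 times the low-glucose level and rose in MDA-MB-468 (log2 difference 0.38, SE 0.031, adjusted p = 4.82e-08) to 1.3 times that level. The difference of the responses, 0.65 (SE 0.040, adjusted p = 6.28e-09), had a 95% interval of 0.56 to 0.73. PARP2 (chr14:20811774-20826063) shares the role of PARP1. PARP2 counts in the 4 low-glucose samples of MDA-MB-231 were 462, 482, 439 and 450.3, against 378, 343, 419 and 421 in high glucose. PARP2 counts in MDA-MB-468 were 1476, 1649, 1561 and 1575 in low glucose, against 1641, 1588, 1621 and 1646 in high glucose. PARP2 fell in MDA-MB-231 without overlap (log2 difference -0.24, SE 0.068, adjusted p = 0.0252), a call lost without MDA-MB-231 low glucose replicates 1 or 2 or MDA-MB-231 high glucose replicates 1 or 2 (adjusted p from 0.0611 to 0.0906). In MDA-MB-468 it had 0.054 (SE 0.038, adjusted p = 0.256), and the lines differed by 0.29 (SE 0.079, adjusted p = 0.00975).

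LIG3 (chr17:33307531-33336762), the ligase that seals short patches and serves the mitochondria, had the largest fall of any base excision repair gene in MDA-MB-468. Normalized counts of LIG3 in MDA-MB-231 were 551, 549, 571 and 518 in low and 596, 524, 539.6 and 563 in high glucose. LIG3 in MDA-MB-468 had 842, 873, 858 and 893 in low glucose, compared with 588, 579, 549 and 535 in high glucose. The MDA-MB-468 samples fell without overlap (log2 difference -0.62, SE 0.046, adjusted p = 1.6e-08) to 0.65 times the low-glucose level, and the high-glucose mean, 563 ± 24.8, was near the 547 ± 21.8 (SD, n = 4) of MDA-MB-231 in low glucose. In MDA-MB-231 the difference was 0.021 (SE 0.054, adjusted p = 0.856), and the difference between the lines was -0.64 (SE 0.064, adjusted p = 1.13e-06). RFFL, on the opposite strand, overlaps 29.1% of the LIG3 exon bases and had a log2 difference of -0.18 in MDA-MB-468 (adjusted p = 0.0283).

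XRCC1 (chr19:44047463-44084625) is the scaffold that binds LIG3 protein. XRCC1 in MDA-MB-231 measured 493, 500.0, 519 and 459.6 normalized counts in low glucose and 459, 439, 424 and 436 in high glucose. XRCC1 in MDA-MB-468 measured 962, 910.2, 951 and 941 in low and 1056, 1009, 1091 and 1013 in high glucose. XRCC1 rose in MDA-MB-468 without overlap (log2 difference 0.15, SE 0.041, adjusted p = 0.00717), opposite to LIG3, although the rise was not called after a correction for GC content (adjusted p = 0.0894). In MDA-MB-231 the high-glucose samples were all below the low-glucose samples, with an adjusted p just above the threshold (log2 difference -0.16, SE 0.055, adjusted p = 0.0537), and the fall was called without MDA-MB-231 low glucose replicate 4 (adjusted p = 0.0173). The lines differed by 0.31 (SE 0.058, adjusted p = 0.000607). POLB, the polymerase that fills the gap, had 0.10 (SE 0.10, adjusted p = 0.587) for MDA-MB-231 and -0.10 (SE 0.066, adjusted p = 0.225) for MDA-MB-468.

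**Figure D3:**
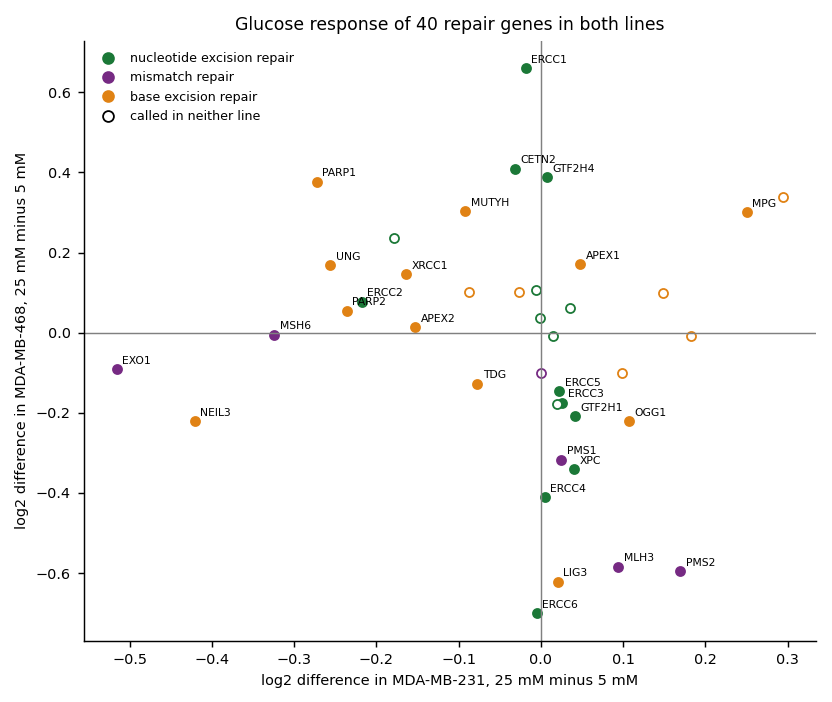
Log2 difference, 25 mM minus 5 mM glucose, of 40 members in MDA-MB-231 (horizontal axis) and MDA-MB-468 (vertical axis), colored by repair route, with named filled points for members called in at least 1 line; GTF2H2, near the count floor in MDA-MB-468, is left out. PARP1 and UNG sit in the upper left quadrant and MPG in the upper right, and the MutL genes, LIG3 and ERCC6 lie low on the vertical axis near 0 in MDA-MB-231.

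Of the 17 nucleotide excision repair genes, 1, ERCC2, was called in MDA-MB-231. In MDA-MB-468, 9 were called, 3 higher (ERCC1, GTF2H4 and CETN2) and 6 lower (XPC, ERCC3, ERCC4, ERCC5, ERCC6 and GTF2H1). The called shares of this route were 5.88% in MDA-MB-231, beside 15.1% of all genes, and 52.9% in MDA-MB-468, near the 47.6% of all genes. Among the genes that find damage anywhere in the genome, XPC (chr3:14186647-14220121) encodes the sensor. XPC counts in the 4 low-glucose samples of MDA-MB-231 were 351, 369.9, 355 and 357, against 351, 382, 369 and 372 in high glucose. XPC counts in MDA-MB-468 were 431, 498, 428 and 490.4 in low glucose, against 384, 347, 350.2 and 373 in high glucose. XPC fell in MDA-MB-468 without overlap (log2 difference -0.34, SE 0.065, adjusted p = 0.000374), had 0.040 (SE 0.056, adjusted p = 0.708) in MDA-MB-231, and differed between the lines by -0.38 (SE 0.079, adjusted p = 0.00131). CETN2 (chrX:151995538-151999301) encodes centrin, which is bound to XPC protein and is also part of the centrosome. Normalized counts of CETN2 in MDA-MB-231 were 935, 1118, 991 and 1099 in low and 962, 986, 1051 and 1046 in high glucose. CETN2 in MDA-MB-468 had 1102, 1193, 1059 and 1022 in low glucose, compared with 1593, 1342, 1452 and 1427 in high glucose. CETN2 rose in MDA-MB-468 without overlap (log2 difference 0.41, SE 0.054, adjusted p = 1.11e-05), the opposite direction to XPC, while MDA-MB-231 had -0.031 (SE 0.055, adjusted p = 0.774), and the lines differed by 0.44 (SE 0.090, adjusted p = 0.00119). RAD23B, which stabilizes XPC protein, had intervals of -0.026 to 0.10 for MDA-MB-231 and -0.0034 to 0.13 for MDA-MB-468. DDB1 and DDB2, which form the ultraviolet damage sensor, were also not called. DDB1, one of the most abundant members, had narrow intervals of -0.042 to 0.072 and -0.070 to 0.055, and DDB2 had -0.18 to 0.17 and -0.022 to 0.24.

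ERCC6 (chr10:50662214-50747584) encodes CSB, which finds damage where RNA polymerase has stalled. ERCC6 in MDA-MB-231 measured 364, 383, 373 and 374 normalized counts in low glucose and 372, 366, 429 and 329 in high glucose. ERCC6 in MDA-MB-468 measured 378, 442, 445 and 487 in low and 262, 349.6, 258 and 219 in high glucose. It had the largest fall among the called members in MDA-MB-468 (log2 difference -0.70, SE 0.11, adjusted p = 6.44e-05), to 0.615 times the low-glucose level, and its groups did not overlap although high-glucose replicate 2 stood above the other 3. In MDA-MB-231 the difference was -0.0049 (SE 0.071, adjusted p = 0.98), and the lines differed by -0.70 (SE 0.16, adjusted p = 0.00302). ERCC8, which encodes its partner CSA, had -0.18 (SE 0.087, adjusted p = 0.104) in MDA-MB-468, called as a fall without MDA-MB-468 high glucose replicate 4 (adjusted p = 0.0443), and 0.020 (SE 0.094, adjusted p = 0.924) in MDA-MB-231.

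TFIIH, the complex that opens the helix for both transcription and repair, was measured through 6 core genes. ERCC2 (chr19:45853095-45874176) encodes the helicase XPD. ERCC2 counts in the 4 low-glucose samples of MDA-MB-231 were 1510.5, 1376, 1639 and 1344, against 1362, 1174, 1202 and 1301 in high glucose. ERCC2 counts in MDA-MB-468 were 741, 674, 735 and 741 in low glucose, against 738, 784, 757 and 769 in high glucose. ERCC2 fell in MDA-MB-231 (log2 difference -0.22, SE 0.060, adjusted p = 0.02) with overlapping groups, and the call was lost without MDA-MB-231 low glucose replicates 1 or 3 or MDA-MB-231 high glucose replicates 2 or 3 (adjusted p from 0.0615 to 0.0714). It had 0.077 (SE 0.046, adjusted p = 0.184) in MDA-MB-468, and the lines differed by 0.29 (SE 0.084, adjusted p = 0.0129). ERCC3 (chr2:128014866-128051742) encodes the translocase XPB. Normalized counts of ERCC3 in MDA-MB-231 were 725, 789.7, 709.6 and 722 in low and 712, 787, 774 and 727 in high glucose. ERCC3 in MDA-MB-468 had 1362, 1266, 1288 and 1271 in low glucose, compared with 1162, 1194, 1163 and 1077 in high glucose. ERCC3 fell in MDA-MB-468 without overlap (log2 difference -0.17, SE 0.042, adjusted p = 0.00245) and had 0.026 (SE 0.050, adjusted p = 0.794) in MDA-MB-231, with -0.20 (SE 0.063, adjusted p = 0.022) for the difference between the lines.

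GTF2H1 (chr11:18343842-18388592) encodes the p62 subunit, which binds XPC protein. GTF2H1 in MDA-MB-231 measured 1148, 1139, 1085 and 1174 normalized counts in low glucose and 1195, 1248, 1143 and 1098 in high glucose. GTF2H1 in MDA-MB-468 measured 1216, 1315, 1261 and 1146 in low and 1046, 1065, 1117 and 1039 in high glucose. GTF2H1 fell in MDA-MB-468 without overlap (log2 difference -0.21, SE 0.045, adjusted p = 0.00113) and had 0.042 (SE 0.045, adjusted p = 0.605) in MDA-MB-231, a difference between the lines of -0.25 (SE 0.065, adjusted p = 0.00671). GTF2H4 (chr6:30875984-30881883) encodes p52, which anchors XPB. GTF2H4 counts in the 4 low-glucose samples of MDA-MB-231 were 717, 682, 687 and 644, against 687, 734, 629.7 and 695 in high glucose. GTF2H4 counts in MDA-MB-468 were 435, 348, 432 and 428 in low glucose, against 510.4, 566, 546 and 524 in high glucose. GTF2H4 rose in MDA-MB-468 without overlap (log2 difference 0.39, SE 0.069, adjusted p = 0.000215), while MDA-MB-231 had 0.0073 (SE 0.054, adjusted p = 0.954), and the lines differed by 0.38 (SE 0.095, adjusted p = 0.00534). The TFIIH core genes thus moved in both directions in MDA-MB-468. GTF2H3, which encodes p34, had intervals of -0.10 to 0.10 for MDA-MB-231 and -0.079 to 0.15 for MDA-MB-468.

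GTF2H2, which encodes p44, had 136 ± 14.97 and 137 ± 12.1 normalized counts (SD, n = 4) in low and high glucose in MDA-MB-231. In MDA-MB-468 its samples held 9.49, 3.32, 0.875 and 18.0 in low glucose and 1.94, 3.28, 1.14 and 2.53 in high glucose. The near-identical copy GTF2H2C averaged 304 in low-glucose MDA-MB-231 and 267 in low-glucose MDA-MB-468. A further copy, GTF2H2B, averaged 74.35 and 0.875 in these groups, so neither copy was higher in MDA-MB-468. Reads could be split between the copies, so the level of GTF2H2 is uncertain. The log2 difference of GTF2H2 was -1.02 (SE 0.68, adjusted p = 0.231) in MDA-MB-468, called without MDA-MB-468 low glucose replicate 3 (adjusted p = 0.0462), and that of GTF2H2C was -0.60.

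ERCC1 (chr19:45910592-45982086), the partner of XPF in the nuclease that cuts on 1 side of the lesion, had the largest rise of any member. Normalized counts of ERCC1 in MDA-MB-231 were 1315, 1300.5, 1376 and 1159.7 in low and 1294, 1191, 1322 and 1273 in high glucose. ERCC1 in MDA-MB-468 had 739, 696, 694 and 710.5 in low glucose, compared with 1156, 1080.4, 1094 and 1161 in high glucose. In MDA-MB-468 every high-glucose sample was above every low-glucose sample, with 0.66 (SE 0.043, adjusted p = 3.31e-09), a level 1.58 times that in low glucose. In MDA-MB-231 the groups overlapped (log2 difference -0.018, SE 0.050, adjusted p = 0.864), and the lines differed by 0.68 (SE 0.068, adjusted p = 1.03e-06). POLR1G, on the opposite strand, overlaps 28.6% of the ERCC1 exon bases and had a log2 difference of -0.45 in MDA-MB-468 (adjusted p = 0.000219). ERCC4 (chr16:14013995-14046205) encodes XPF, the catalytic subunit of this nuclease. ERCC4 in MDA-MB-231 measured 249, 245, 225 and 252 normalized counts in low glucose and 229, 239, 259 and 246 in high glucose. ERCC4 in MDA-MB-468 measured 56.9, 58.6, 68.3 and 54.8 in low and 55.4, 39.3, 43.5 and 41.3 in high glucose. Its groups overlapped in MDA-MB-468, and its fall (log2 difference -0.41, SE 0.15, adjusted p = 0.0382) was kept by only 7 of 18 alternatives and was lost without MDA-MB-468 low glucose replicates 1, 2 or 3 or MDA-MB-468 high glucose replicates 2, 3 or 4 (adjusted p from 0.0566 to 0.115). In MDA-MB-231 it had 0.0045 (SE 0.071, adjusted p = 0.98), and the difference between the lines (log2 difference -0.41, SE 0.15, adjusted p = 0.0403) was not called under 15 of 27 alternatives, 11 of them without MDA-MB-231 low glucose replicates 1, 2 or 3, MDA-MB-231 high glucose replicates 2, 3 or 4, MDA-MB-468 low glucose replicates 2 or 3 or MDA-MB-468 high glucose replicates 2, 3 or 4 (adjusted p from 0.0531 to 0.0831). ERCC5, which encodes XPG, the nuclease of the other cut, averaged 1451 ± 46.6 and 1312 ± 79.9 in low and high glucose in MDA-MB-468 and fell without overlap (log2 difference -0.15, SE 0.045, adjusted p = 0.0131). In MDA-MB-231 it had 0.023 (SE 0.054, adjusted p = 0.839). The ERCC5 responses were not shown to differ between the lines (-0.17, SE 0.074, adjusted p = 0.0981). That difference was called without MDA-MB-231 low glucose replicate 4 (adjusted p = 0.0463). XPA, which checks the lesion before incision, had -0.18 (SE 0.10, adjusted p = 0.28) for MDA-MB-231 and 0.24 (SE 0.13, adjusted p = 0.134) for MDA-MB-468.

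The 2 lines differed in the level of most members in low glucose. There, 34 of the 41 were called between the lines, 20 higher and 14 lower in MDA-MB-468, beside 85.4% of 17115 genes, 45% as higher and 40.4% as lower. The largest excess in MDA-MB-468 was that of PMS2, with a log2 difference of 2.09 (SE 0.061, adjusted p = 1.46e-15), followed by PARP2 (log2 difference 1.77, SE 0.056, adjusted p = 4.17e-15), PMS1 (log2 difference 1.65, SE 0.085, adjusted p = 4e-12) and APEX1 (log2 difference 1.34, SE 0.031, adjusted p = 5.12e-17). The values by sample given above for these genes do not overlap between the lines. The difference of PMS2 is uncertain because of its copies. The largest copy, PMS2CL, averaged 184.5 normalized counts for MDA-MB-231 and 412 for MDA-MB-468 in low glucose. The largest deficits in MDA-MB-468 were those of GTF2H2 (log2 difference -4.43, SE 0.48, adjusted p = 1.39e-07), whose copies make it uncertain, ERCC4 (log2 difference -2.01, SE 0.10, adjusted p = 4.25e-12), MPG (log2 difference -1.50, SE 0.063, adjusted p = 2.15e-13) and GTF2H3 (log2 difference -1.29, SE 0.045, adjusted p = 1.73e-14). GTF2H3 had 968, 954, 934 and 992 normalized counts for MDA-MB-231 and 378, 404, 409.6 and 376 for MDA-MB-468 in low glucose. DDB1 differed between the lines by 0.0031, with a 95% interval of -0.049 to 0.055, but this value rests on the scaling: it was 0.22 (adjusted p = 2.15e-08) under quantile rescaling and 0.11 (adjusted p = 0.00134) after a correction for transcript length, called in both.

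Levels of different genes were compared as RPKM, that is, reads scaled to the length of the canonical transcript and to library size. In low glucose, APEX1 (119) and DDB1 (113) stood highest in MDA-MB-231, followed by RAD23B (69.2), MPG (48.4), PARP1 (42.9) and CETN2 (42.3). In MDA-MB-468 the order was APEX1 (332), DDB1 (125), MSH6 (56.9), PARP2 (54.5) and CETN2 (49.2). The lowest were NEIL1 (0.935 for MDA-MB-231 and 0.490 for MDA-MB-468), ERCC8 (1.09 and 1.13), MLH3 (1.55 and 2.02) and ERCC4 (2.07 and 0.561), together with GTF2H2 (0.291) in MDA-MB-468. Neighbors in this order, such as APEX1 and DDB1 in MDA-MB-231, were not tested against each other, and the order rests on the transcript chosen. PARP1 and CETN2 in MDA-MB-231 differed by less than the spread of CETN2 between samples.

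**Figure D4:**
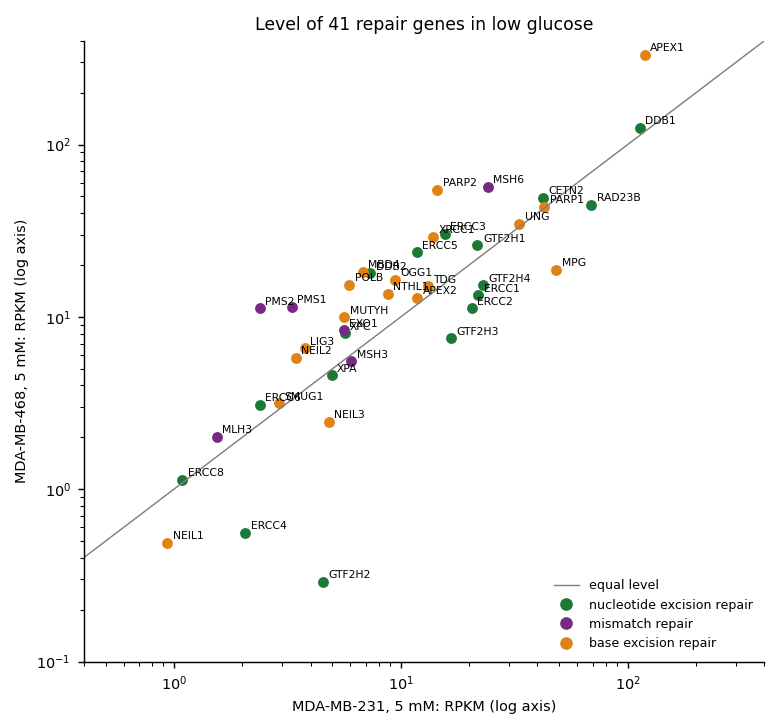
Level of the 41 members in low glucose, in RPKM on log axes, in MDA-MB-231 (horizontal) and MDA-MB-468 (vertical), colored by repair route; the line marks equal levels. PMS2, PMS1, PARP2 and APEX1 lie above the line, and GTF2H2, ERCC4, MPG and GTF2H3 below it.

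The other genes of these pathways were taken as a list of 37. In MDA-MB-231, 16 were called, 1 higher and 15 lower, and 12 of the 17 genes of repair synthesis and ligation, which also copy DNA in S phase, were lower and none was higher. The called share of the list was 43.2%, beside 15.1% of all genes, 9.37% as lower. The largest falls were those of POLE2 (log2 difference -0.50, SE 0.14, adjusted p = 0.0213), a polymerase epsilon subunit, FEN1 (log2 difference -0.41, SE 0.037, adjusted p = 7.32e-07), the flap endonuclease, and POLD1 (log2 difference -0.40, SE 0.060, adjusted p = 0.000158), the catalytic subunit of polymerase delta. The 1 rise was that of POLL (log2 difference 0.22, SE 0.070, adjusted p = 0.0423), a repair polymerase. In MDA-MB-468, 20 of the 37 were called, 11 higher and 9 lower, a share of 54% beside 47.6% of all genes. The largest rises were those of POLD2 (log2 difference 0.59, SE 0.042, adjusted p = 1.1e-08), a further polymerase delta subunit, MNAT1 (log2 difference 0.53, SE 0.083, adjusted p = 7.03e-05), the assembly factor of the TFIIH kinase, and RBX1 (log2 difference 0.41, SE 0.057, adjusted p = 1.8e-05), the RING subunit of the DDB1 ubiquitin ligase. The largest falls were those of UVSSA (log2 difference -0.84, SE 0.15, adjusted p = 0.000166), which works with CSB at stalled polymerases, APLF (log2 difference -0.71, SE 0.13, adjusted p = 0.000308), which is recruited by poly(ADP-ribose), and CUL4B (log2 difference -0.37, SE 0.031, adjusted p = 5.3e-08), a scaffold of the DDB1 ligase. UVSSA thus fell in the same line as ERCC6, where 22.7% of all genes were called lower, and neither was called in MDA-MB-231. ERCC8, which acts at the same step, was called in neither line.

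Genes of the cell cycle were also examined in these samples. Of a list of 15, 14 were lower and none was higher in MDA-MB-231 in high glucose, among them MKI67, a proliferation marker (log2 difference -0.62, SE 0.031, adjusted p = 1.12e-09), CCNE2, an S phase cyclin (log2 difference -0.78, SE 0.088, adjusted p = 8.71e-06), and MCM2, a subunit of the replicative helicase (log2 difference -0.29, SE 0.041, adjusted p = 0.000101). Over all genes, 5.71% were called higher and 9.37% lower in MDA-MB-231. The list was chosen with earlier results of these data known. The summed normalized count of the 15 ranged from 36290 to 36871 over the low-glucose samples and from 26466 to 26613 over the high-glucose samples of that line. In MDA-MB-468, 6 were higher and 3 lower, with MKI67 at -0.18 (SE 0.042, adjusted p = 0.00179), CCNE2 at 0.14 (SE 0.065, adjusted p = 0.0934) and MCM2 at 0.23 (SE 0.039, adjusted p = 0.000141), and the sum ranged from 39951 to 40550 in low and from 41364 to 41661 in high glucose. Over all genes, 24.9% were called higher and 22.7% lower in MDA-MB-468. The members called in MDA-MB-231 and these genes moved in the same samples, and the part of the cell cycle genes in the members' differences was not tested.

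Transcript length was another property that moved with the differences in MDA-MB-468. The 9 members that rose there had a median canonical transcript of 1712 nt (1036 to 3978), and the 12 that fell a median of 3769 nt (1630 to 9001). ERCC6 (9001 nt), LIG3 (8382 nt) and MLH3 (7820 nt), which fell, have some of the longest transcripts, while ERCC1 (3379 nt) and PARP1 (3978 nt) rose with transcripts longer than the median of the genes that rose. OGG1 (1630 nt) fell with a transcript shorter than that median. Across the 41 members, Spearman's rho between length and log2 difference was -0.44 in MDA-MB-468 and -0.037 in MDA-MB-231. Across all genes with a length, rho was -0.14 (n = 15243) and -0.19 (n = 14436). The genes share libraries and are not independent, and no p is given. After a correction for transcript length fitted over all genes, ERCC6 (-0.60), LIG3 (-0.52), MLH3 (-0.49) and PMS2 (-0.55) kept a called fall and ERCC1 (0.66) and PARP1 (0.40) a called rise in MDA-MB-468. ERCC4 (-0.33) was then no longer called.

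**Figure D5:**
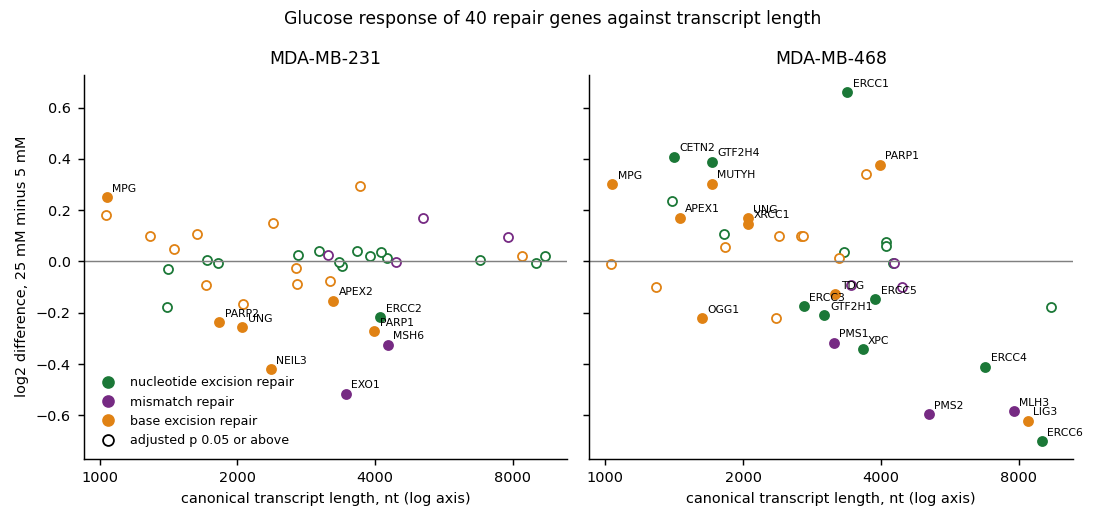
Log2 difference, 25 mM minus 5 mM glucose, of 40 members against canonical transcript length in nt (log axis) in MDA-MB-231 (left) and MDA-MB-468 (right), colored by repair route and filled where the adjusted p is below 0.05; GTF2H2 is left out. In MDA-MB-468 the called rises sit mostly left of the called falls, with ERCC1 and PARP1 as exceptions among the rises and OGG1 among the falls.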

How the data were processed

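The deposited table holds a normalized signal per gene for 16 samples, deposited by the authors. The methods of the paper give Trimmomatic, TopHat, hg19, an Ensembl annotation, and CPM with TMM factors from edgeR, while the labels name hg38 and edgeR. The values themselves have the form of whole reads over a size factor of the library, not of such CPM, and how they were scaled is not given in the sources used here. The counting program and its use of strand are not given in the sources used here. Whole reads were recovered for 100% of the values (largest deviation 5.82e-05 reads). Libraries of 14094597 to 24425916 reads put the floor of 3 reads at 0.123 to 0.213 CPM, which covers counting error only.

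The two-sided tests took in genes reaching 0.5 CPM in at least 2 samples of a fit and were run with limma 3.58.1 (lmFit, eBayes with trend, R 4.3.3) on log2(value + 1), with Benjamini-Hochberg adjustment over all genes. Differences on this scale understate the change of low genes. Each line was fitted on its 8 samples, and differences between lines on all 16. Alternatives included edgeR 4.0.16 and DESeq2 1.42.0 on the recovered reads, and the fits were tested on simulated data. Same-numbered samples did not deviate together (correlations from -0.040 to 0.032), so replicate numbers were not used as pairs. Positions and transcript lengths are from GENCODE lifted to GRCh37.

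The members and gene lists were chosen with earlier results of these data known. Every member is reported. Values by sample are given for members called in both lines, for those called for the difference between lines and for the 4 called members with the largest difference in each line. Among the partner genes, the 3 largest rises and falls per line are named, and of the cell cycle genes MKI67, CCNE2 and MCM2.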

Additional observations from a re-analysis of the deposited data

Results flagged for a closer look

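Of 164 groups of 4 samples, 1 for each member and group, 9 held a sample far from the other 3 by Dixon's ratio, a number near what chance gives (about 1 in 20). In MDA-MB-468 in low glucose these were ERCC2 in replicate 2 (674 normalized counts), GTF2H4 in replicate 2 (348), POLB in replicate 1 (331) and PARP1 in replicate 3 (2830.5). In high glucose of that line they were ERCC8 in replicate 4 (167), PMS2 in replicate 4 (551) and NEIL1 in replicate 3 (45.8). In MDA-MB-231 they were UNG in high glucose replicate 2 (1014) and MBD4 in low glucose replicate 4 (305).

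The glucose response differed between the lines by the limma interaction for 23 members. The log2 response in MDA-MB-468 minus that in MDA-MB-231 was positive for ERCC1 (0.68), ERCC2 (0.29), GTF2H4 (0.38), CETN2 (0.44), MSH6 (0.32), EXO1 (0.42), UNG (0.42), MUTYH (0.39), APEX1 (0.12), APEX2 (0.17), XRCC1 (0.31), PARP1 (0.65) and PARP2 (0.29). It was negative for XPC (-0.38), ERCC3 (-0.20), ERCC4 (-0.41), ERCC6 (-0.70), GTF2H1 (-0.25), MLH3 (-0.68), PMS1 (-0.34), PMS2 (-0.77), OGG1 (-0.33) and LIG3 (-0.64). The largest adjusted p among these was 0.0419, that of APEX1.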

How the results depend on the processing

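The number of members called stayed within 1.5 times its main value under every alternative run. The range was 6 to 10 for MDA-MB-231, 19 to 22 for MDA-MB-468 and 18 to 24 for the difference of responses. Leaving out single samples alone gave 6 to 10, 19 to 21 and 18 to 23. The line difference in low glucose gave 32 to 36 members, and the partner genes gave 12 to 17 in MDA-MB-231 and 16 to 21 in MDA-MB-468. Of the members not called, 1 of 32 became called under at least 1 alternative for MDA-MB-231, 7 of 20 for MDA-MB-468 and 4 of 18 for the difference of responses. Calls kept under every alternative numbered 6 of 9 in MDA-MB-231, 18 of 21 in MDA-MB-468 and 18 of 23 for the difference of responses. With the replicate block, 7, 21 and 19 members were called, although the numbers do not pair the samples. On recovered reads edgeR called 8, 21 and 23 and DESeq2 8, 19 and 22.

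Under quantile rescaling the line difference in low glucose reversed for PARP1 (0.018, adjusted p = 0.567) and UNG (0.025, adjusted p = 0.378); the cause was not tested. Quantile rescaling also moved the split of all genes called in MDA-MB-231 from 850 higher and 1395 lower to 1027 and 1114. Genes near the 3-read floor, GTF2H2 in MDA-MB-468 above all, could not be resolved at this depth.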
